A study of Mus musculus with 8 samples.

Results

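A set of 9 genes that control carbon flow between glucose and pyruvate in liver was examined: *Pck1*, *G6pc*, *Fbp1* and *Pcx*, which encode enzymes of glucose production, *Pklr*, *Gckr* and *Pfkfb1*, which control glycolysis, and the transporters *Slc2a2* and *Slc37a4*. They were chosen by gene name among 34836 gene names on the array. The arrays carry 10 probes for the 9 genes, of 55681 probes in all. The comparison was between NZO mice (NZO/HiBomDife), an obese and diabetes-susceptible strain, and B6 mice (C57BL/6), a lean and diabetes-resistant one. Liver RNA came from 4 male mice per strain at 6 weeks of age, and every mouse of both strains had received a high-fat diet with 45% fat. Each mouse was hybridised to 1 one-colour Agilent array, and mice are named here by strain and mouse number. Whether the mice were fed or fasted, and the hour at which liver was taken, is not given in the sources used here.

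In gluconeogenesis, pyruvate carboxylase (*Pcx*) turns pyruvate into oxaloacetate, cytosolic PEPCK (*Pck1*) turns oxaloacetate into phosphoenolpyruvate, fructose-1,6-bisphosphatase (*Fbp1*) bypasses phosphofructokinase, and glucose-6-phosphatase (*G6pc*) releases free glucose. Glucagon and glucocorticoids raise *Pck1* and *G6pc* in fasting, and insulin lowers them. In the opposite direction *Gckr* encodes a regulatory protein of hepatic glucose use, the bifunctional enzyme *Pfkfb1* makes and degrades the activator of phosphofructokinase, and liver pyruvate kinase (*Pklr*) closes glycolysis, with transcription driven by glucose through ChREBP (*Mlxipl*).

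The sequences upstream of 3 of these genes are shown because they hold the elements through which hormones and glucose are known to act on them. Each is the 250 bases before an annotated RefSeq start (GRCm38.p6), in lower case, with capitals for letters matched on either strand by a short motif. The windows are *Pck1* at chr2:173152823-173153072, *G6pc* at chr11:101367466-101367715 and the downstream, liver start of *Pklr* at chr3:89136373-89136622, all on the + strand.
Pck1: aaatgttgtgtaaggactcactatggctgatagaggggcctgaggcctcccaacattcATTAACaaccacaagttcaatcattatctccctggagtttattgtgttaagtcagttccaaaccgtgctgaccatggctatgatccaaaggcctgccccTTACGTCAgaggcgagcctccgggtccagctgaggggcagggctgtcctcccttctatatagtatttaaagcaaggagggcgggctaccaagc
G6pc: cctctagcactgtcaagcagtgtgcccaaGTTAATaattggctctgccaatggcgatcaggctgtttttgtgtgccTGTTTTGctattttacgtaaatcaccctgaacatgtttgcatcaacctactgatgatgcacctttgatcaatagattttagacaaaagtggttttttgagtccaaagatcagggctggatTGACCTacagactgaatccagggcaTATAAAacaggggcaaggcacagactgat
Pklr: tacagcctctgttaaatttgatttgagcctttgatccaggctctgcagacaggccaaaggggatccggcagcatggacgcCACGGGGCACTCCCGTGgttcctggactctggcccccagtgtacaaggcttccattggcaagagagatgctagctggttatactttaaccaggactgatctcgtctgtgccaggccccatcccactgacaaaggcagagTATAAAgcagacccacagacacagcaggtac

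The *Pck1* window held a cAMP response element (TNACGTCA) from base -93 to base -86 before the start, and 2.52% of the 32851 windows of this length held one. It also held an HNF1 half-site (GTTAAT, read on the opposite strand), found in 6.43% of windows. The *G6pc* window held the same half-site, an insulin response core (TGTTTTG, 5.56% of windows), a nuclear receptor half-site (AGGTCA, read on the opposite strand, 14.0% of windows) and a TATA box (TATAAA, 12.4% of windows). The *Pklr* window held a TATA box and, from base -170 to base -154, a pair of CACGNG motifs in opposite orientation with 5 bases between them, the layout of a carbohydrate response element. That pair occurred in 13 of 32851 windows (0.0396%). A seventh pattern, the FoxO site GTAAACA (3.17% of windows), matched none of the 3. The matched patterns did not overlap each other, and a match describes letters, not a bound site.

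All 9 genes had a probe well above background on all 8 arrays. Levels are given as log2 of the processed signal minus the 75th percentile of its array, so that 0 is the signal below which 75% of spots on the array lay. The level of a probe is compared between mice. Where a probe is called brighter or brightest, this refers to its signal and not to transcript amount. Differences are log2 fold changes, NZO minus B6. Of the 9 probes tested, 2 passed the adjusted threshold (limma, Benjamini-Hochberg adjusted p of at most 0.05 over all 27623 tested probes), both higher in NZO. They were *Pcx* and *Pklr*. Across all tested probes 14.2% passed, 6.78% higher and 7.45% lower in NZO. The median log2 fold change of the 9 probes was 0.22 and that of all tested probes 0.01. In 8 of the 9 genes a single probe carried the whole reading.

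**Figure D1:**
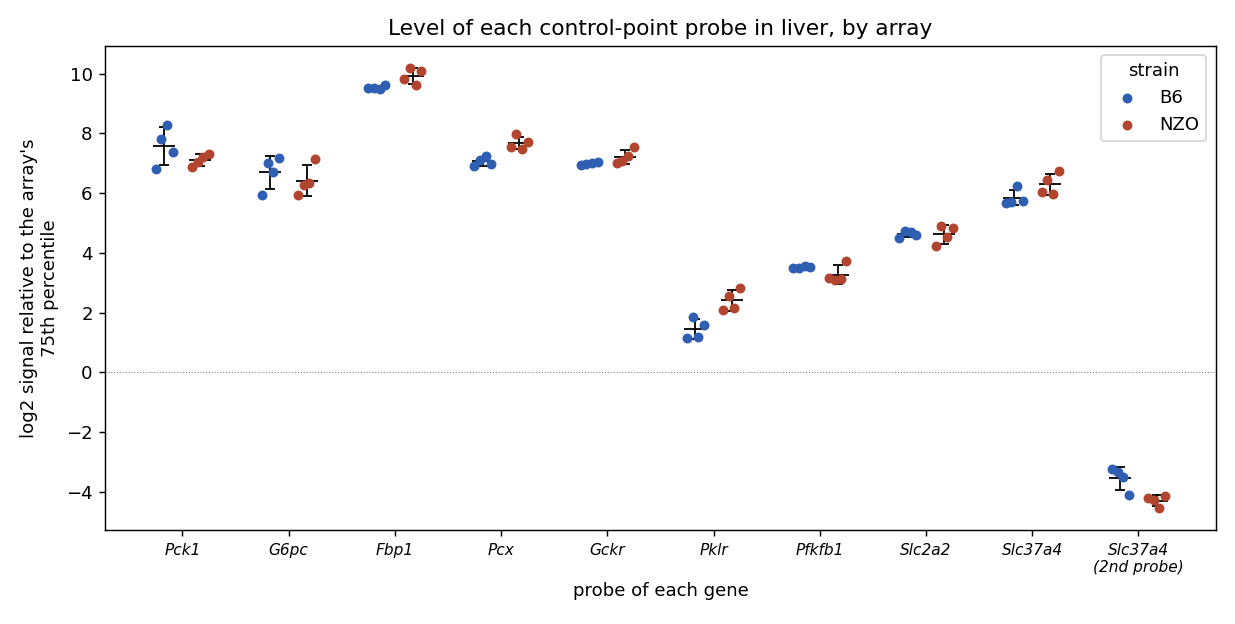
Level of each probe (log2 signal relative to the 75th percentile of its array, vertical axis) for the 10 probes of the 9 genes, with 1 point per mouse, B6 in blue and NZO in red, and black marks for the mean and SD of 4 mice. The NZO points lie wholly above the B6 points for *Pcx* and *Pklr*, and the second *Slc37a4* probe was at -3.24 or less on every array.

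Among the gluconeogenic genes, *Pcx* rose in NZO liver. Its level was 7.55, 7.97, 7.48 and 7.72 in NZO mice 007, 003, 009 and 011, and 6.90, 7.12, 7.23 and 6.99 in B6 mice 011, 010, 015 and 009. Every NZO mouse was above every B6 mouse, and of all tested probes 21.9% separated the strains without overlap. The means were 7.68 ± 0.22 and 7.06 ± 0.15 (SD, n = 4 per strain), a log2 fold change of 0.62 (SE 0.14, limma adjusted p = 0.0175) or 1.54-fold. The difference was 0.55 among the arrays scanned on the first day and 0.61 among those of the second, which held 1 NZO array. It stayed positive without any 1 mouse, but the adjusted p rose to 0.0533 without B6 mouse 011 and to 0.0552 without B6 mouse 009 (log2 fold changes of 0.57 and 0.60), and without scaling between arrays the difference was 0.39 (limma adjusted p = 0.0613). In the table as deposited it was 0.37 (limma adjusted p = 0.0436). *Pcx* also missed the adjusted threshold with no filter on dim probes (0.62, limma adjusted p = 0.0592) and with slide as a fixed term (0.79). The *Pcx* probe lies on chromosome 19 from 4621610 to 4621669 (mm9) and is listed for 2 RefSeq transcripts. Pyruvate carboxylase is also abundant in fat, and of 6 adipocyte markers *Adipoq*, *Plin1* and *Lep* were not well above background on any array. The summed adipocyte signal, in multiples of the 75th percentile, was 565 to 644 in NZO and 409 to 481 in B6. Its brightest probe was that of *Car3* (0.47, limma adjusted p = 0.0133), which hepatocytes also express. *Cidec* and *Fabp4*, also among the 6 adipocyte markers, had 0.42 and -0.30 and missed the threshold. The part of adipocyte RNA in the *Pcx* difference was not tested.

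*Pck1* did not pass the test. Its level was 6.86, 7.03, 7.22 and 7.30 in NZO mice 007, 003, 009 and 011, and 6.82, 7.82, 8.29 and 7.37 in B6 mice 011, 010, 015 and 009. The lowest mouse of the series was a B6 mouse, and the other B6 mice stood above all NZO mice. B6 therefore spread more widely, with an SD of 0.63 against 0.20 in NZO. The log2 fold change was -0.47 (SE 0.29, limma adjusted p = 0.336), with a 95% interval from -1.14 to 0.19. It was -0.72 without B6 mouse 011 (limma unadjusted p = 0.0148) and -0.24 without B6 mouse 015. Without scaling between arrays it was -0.70 (limma unadjusted p = 0.024) and in the table as deposited -0.71 (limma unadjusted p = 0.0132), and with slide as a fixed term, which rests on the 3 arrays of 1 slide, it was -1.02. None of these passed the adjusted threshold. Within the first and the second scan day it was -0.87 and -0.24, the latter with NZO 007 alone on the NZO side. *Pck1* kept its direction in 24 of 25 alternatives, some of which change only the test or the set of probes and so cannot turn it.

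*G6pc* overlapped throughout. NZO mice 007, 003, 009 and 011 stood at 5.93, 6.26, 6.35 and 7.14, and B6 mice 011, 010, 015 and 009 at 5.93, 7.01, 6.69 and 7.17. Mouse B6 011, the lowest for *Pck1*, was also the lowest of its strain here. The log2 fold change was -0.28 (SE 0.33, limma adjusted p = 0.625) and its 95% interval, from -1.04 to 0.48, includes a 2-fold difference in the lower direction. Leaving out 1 mouse moved it from -0.54 (without B6 011) to -0.12 (without NZO 007), and without scaling between arrays it was -0.51. With slide as a fixed term it was -0.59. Within the first and the second scan day it was -0.27 and -0.62, the latter with NZO 007 as the only NZO mouse. *G6pc* kept its direction in 24 of 25 alternatives, some of which change only the test or the set of probes and so cannot turn it.

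*Fbp1* stood at 9.84, 10.19, 9.61 and 10.09 in NZO mice 007, 003, 009 and 011, and at 9.52, 9.54, 9.48 and 9.62 in B6 mice 011, 010, 015 and 009. The B6 mice lay close together (SD 0.06), and only NZO mouse 009 fell within their range. The log2 fold change was 0.39 (SE 0.14, limma adjusted p = 0.104), short of the threshold, and without NZO mouse 009 it was 0.50 with an adjusted p of 0.0341 (limma). Without scaling between arrays it was 0.16 (limma adjusted p = 0.447) and in the table as deposited 0.18 (limma adjusted p = 0.361).

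*Slc37a4*, the carrier that brings glucose-6-phosphate to G6pc in the endoplasmic reticulum, was read by 2 probes. The brighter stood at 6.02, 6.45, 5.98 and 6.73 in NZO mice 007, 003, 009 and 011, and at 5.68, 5.72, 6.23 and 5.75 in B6 mice 011, 010, 015 and 009. Only B6 mouse 015 reached into the NZO range, and the log2 fold change was 0.45 (SE 0.20, limma adjusted p = 0.191). It was 0.31 without NZO mouse 011, 0.22 without scaling between arrays and 0.17 in the table as deposited. The other probe, listed for a cDNA and for no RefSeq transcript, was well above background on 0 of 4 NZO and 3 of 4 B6 arrays and was not tested. Since B6 mouse 009 was also not well above background, the B6 mean of this probe gives no lower bound, and no direction is read from it.

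On the glycolytic side, *Pklr* rose in NZO liver. The level of *Pklr* was 2.08, 2.55, 2.16 and 2.82 in NZO mice 007, 003, 009 and 011, and 1.16, 1.85, 1.20 and 1.57 in B6 mice 011, 010, 015 and 009. The strains did not overlap. The means were 2.40 ± 0.35 and 1.44 ± 0.33 (SD, n = 4 per strain), a log2 fold change of 0.96 (SE 0.22, limma adjusted p = 0.0205) or 1.95-fold. It was the 1 probe of the 9 past the thresholds that the study set for these arrays (unadjusted p of at most 0.05 and an absolute log2 fold change of at least 0.7), which 12.2% of all tested probes passed. It missed these thresholds in the table as deposited (0.68, with *Pck1* past them instead, lower in NZO) and with slide as a fixed term (limma unadjusted p = 0.06). By the methods' test after adjustment over all probes, *Pklr* missed the threshold (adjusted p = 0.0639) and *Pcx* passed (adjusted p = 0.0491). The difference was 0.99 within the first scan day and 0.72 within the second, where NZO 007 was the 1 NZO mouse. Leaving out NZO mouse 003, B6 mouse 011 or B6 mouse 015 gave log2 fold changes of 0.91, 0.87 and 0.88 with limma adjusted p of 0.0565, 0.0597 and 0.0579. *Pklr* also missed the adjusted threshold with no filter on dim probes (0.96, limma adjusted p = 0.0576) and with slide as a fixed term (1.03).

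*Pklr* has an upstream start used in red cell precursors and a downstream start used in liver, and the probe is shown because it is listed for the RefSeq transcripts of both. Its 60 bases span 519 bases of chromosome 3 (88948907 to 88949425, mm9) and so cross an intron.
Pklr probe: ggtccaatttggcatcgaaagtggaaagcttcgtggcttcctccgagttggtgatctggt

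Summed red-cell transcripts were higher in NZO, the direction of *Pklr*. The summed signal of *Hba-a1*, *Hbb-b1*, *Alas2* and *Slc4a1*, in multiples of the 75th percentile, was 366, 318, 470 and 293 in NZO mice 007, 003, 009 and 011, and 208, 165, 155 and 197 in B6 mice 011, 010, 015 and 009. All 4 genes were well above background on every array, and the brightest probe in the sum was that of *Hba-a1*, a globin gene. Of the 4 genes 2 passed, beside 14.2% of all tested probes. *Hba-a1* (log2 fold change 1.00, limma adjusted p = 0.0183) and *Alas2* (0.90, limma adjusted p = 0.0023), the first enzyme of haem synthesis in red cells, rose, while *Hbb-b1* (0.81) and *Slc4a1* (0.61) missed the threshold. By the methods' test after adjustment 1 of the 4 passed, without *Hba-a1* (adjusted p = 0.0768). Within NZO, mouse 011 had the highest *Pklr* and the lowest red-cell sum, but not the lowest *Alas2*. *Alas2* stood at 6.25, 6.36, 5.93 and 6.36 in NZO mice 007, 003, 009 and 011. In B6 mice 011, 010, 015 and 009 it stood at 5.36, 5.46, 5.14 and 5.34. The part of red-cell RNA in the *Pklr* difference was not tested. In these bulk samples, fewer cells of a type and less RNA per cell cannot be told apart.

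**Figure D2:**
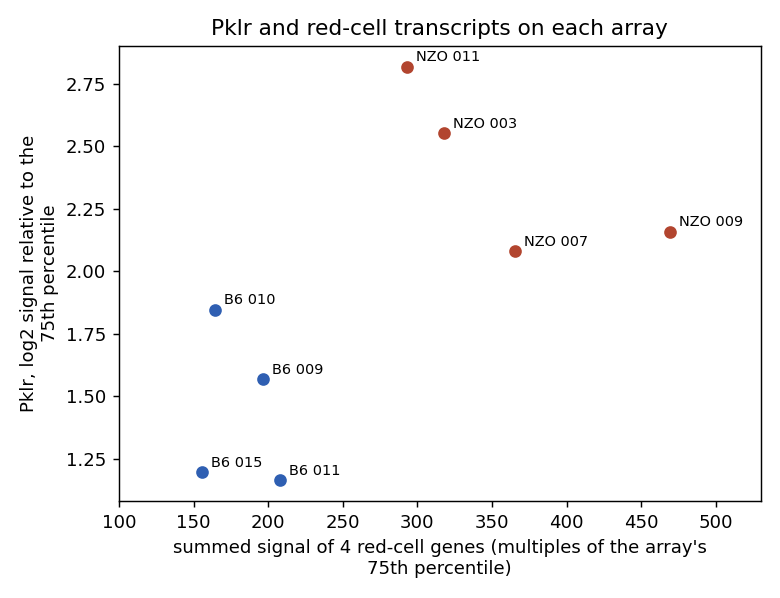
*Pklr* level (log2 signal relative to the 75th percentile, vertical axis) against the summed signal of 4 red-cell genes (multiples of the 75th percentile, horizontal axis), 1 point per mouse, NZO in red and B6 in blue. The NZO mice are higher on both axes, from 293 to 470 against 155 to 208 for the red-cell sum, and NZO 009 has the highest red-cell sum at a *Pklr* level of 2.16.

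*Gckr* stood at 6.998, 7.08, 7.26 and 7.53 in NZO mice 007, 003, 009 and 011, against 6.94, 6.99, 6.99 and 7.06 in B6 mice 011, 010, 015 and 009. The strains overlapped through NZO mouse 007, and the log2 fold change was 0.22 (SE 0.13, limma adjusted p = 0.313). The difference was 0.09 with quantile normalization, -0.01 with no scaling between arrays, -0.03 in the table as deposited and -0.002 within the second scan day. *Pfkfb1* stood at 3.14, 3.08, 3.11 and 3.73 in the NZO mice, in the same order, and at 3.48, 3.51, 3.57 and 3.52 in the B6 mice. The other 3 NZO mice lay below every B6 mouse and NZO 011 above all of them, and the log2 fold change was -0.25 (SE 0.15, limma adjusted p = 0.335). Without NZO 011 it was -0.41 with an adjusted p of 0.0329 (limma). Without scaling between arrays it was -0.48 and in the table as deposited -0.52, both short of the adjusted threshold.

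*Slc2a2*, the glucose transporter of the hepatocyte membrane, stood at 4.21, 4.90, 4.52 and 4.83 in NZO mice 007, 003, 009 and 011, and at 4.51, 4.72, 4.71 and 4.61 in B6 mice 011, 010, 015 and 009. The B6 range lay inside the NZO range. Its log2 fold change was -0.02 (SE 0.16, limma adjusted p = 0.944), with a 95% interval from -0.39 to 0.35.

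**Figure D3:**
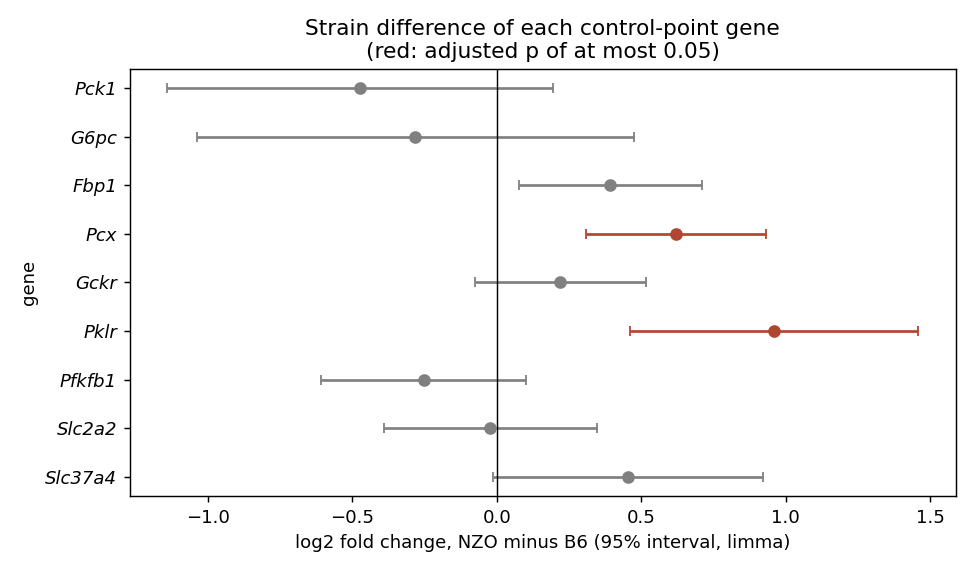
Log2 fold change, NZO minus B6 (horizontal axis), of the 9 tested probes with the 95% interval of the limma fit, red where the adjusted p was at most 0.05. *Pcx* (0.62) and *Pklr* (0.96) are the 2 red points, and *Slc2a2* sits at -0.02.

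The 9 genes varied from mouse to mouse with pairwise correlations of widely different size. After subtraction of the strain means, the highest Pearson correlations over the 8 arrays were *Gckr* with *Pfkfb1* (0.86), *G6pc* with *Pklr* (0.80) and *Pcx* with *Slc2a2* (0.78). *Pck1* and *Fbp1*, which act in the same pathway, had -0.08. Mouse NZO 011 was the highest of its strain for *Pck1*, *G6pc*, *Gckr*, *Pklr*, *Pfkfb1* and *Slc37a4* and so enters several of these values. Among 24431 probes detected on all arrays, those most like *Pck1* in this sense were *Sorbs2* (0.98), *Rrp7a* (0.98) and *Dock2* (0.98), those most like *Pklr* were *Moap1* (0.99), *Arl13b* (0.98) and *Tor3a* (0.98), and those most like *Gckr* were *Inpp4a* (0.98), 2310001H17Rik (0.98) and *Shroom1* (0.98). For *G6pc* they were *Hmgn3* (0.96) and a pair of long non-coding probes (0.97 each). With 8 arrays, shared array quality and strain-independent noise may enter all of these correlations, which was not tested. The genes named as most like a member were picked as the highest of 24431 probes. The size of their correlations therefore does not show shared control. The correlations are descriptions.

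Calls among the other enzymes of glycolysis went in both directions, and 13 of 18 genes passed in neither. Of 18 genes tested, 2 rose and 3 fell (0 and 3 by the methods' test after adjustment), with a median log2 fold change of -0.12 against 0.03 over all 20140 genes tested by their brightest probe, of which 14.3% passed. Phosphoglucose isomerase (*Gpi1*) rose by 0.60 (limma adjusted p = 0.0241), with 0.62 and 0.59 at its 2 other probes, and the liver form of phosphofructokinase (*Pfkl*) rose by 0.46 (limma adjusted p = 0.035), and is named outside the naming rule, after its value was seen. The 3 genes that fell were *Pkm*, the muscle-type pyruvate kinase (-1.45, limma adjusted p = 0.00034), *Pfkp*, the platelet-type phosphofructokinase (-0.62, limma adjusted p = 0.00966), and *Hk2*, a low-Km hexokinase that was tested only because B6 passed the background filter. With normexp background correction *Pfkp* had -0.20 (limma adjusted p = 0.13).

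*Pkm* stood at 0.47, 0.27, -0.10 and -0.02 in NZO mice 007, 003, 009 and 011, and at 1.57, 1.51, 1.78 and 1.58 in B6 mice 011, 010, 015 and 009. The 2 pyruvate kinase genes differed between strains in opposite directions, *Pklr* up and *Pkm* down in NZO, both without overlap. *Hk2* was not well above background on any NZO array and was well above it on all B6 arrays, so that B6 was at least 1.92-fold higher by processed signal. With normexp background correction its log2 fold change was -0.08 (limma adjusted p = 0.57). Markers of 2 other cell types that express *Pkm* are given beside it. Of 5 leukocyte markers 0 passed higher and 2 lower by limma, beside 14.3% of all genes called (1 and 3 at an unadjusted p of at most 0.05, 0 and 0 by the methods' test after adjustment). *Cd68* had -0.42 (limma adjusted p = 0.0445), while *Itgax* was well above background on 4 of 4 B6 and 2 of 4 NZO arrays and entered the test through B6 alone. *Ptprc* had -0.52, *Lyz2* 0.41 and *Cd3e* 0.33, all short of the threshold. The summed leukocyte signal overlapped, at 10.8 to 18.8 in NZO and 10.8 to 13.4 in B6. Summed skeletal muscle markers were 16.4 in NZO 007 and 0.186, 0.215 and 0.386 in the other NZO mice, and ranged from 0.355 to 5.49 in B6. The *Myh4* probe was the brightest of them on 6 of 8 arrays. The part of these cells in the *Pkm* difference was not tested.

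Of 13 tested genes that supply carbon to gluconeogenesis 2 rose and 0 fell by limma (15.4%, beside 14.3% of all genes), with a median log2 fold change of 0.06. At an unadjusted p of at most 0.05 these were 4 and 0, and the test that the methods name, after Benjamini-Hochberg, gave 1 and 0. *Got1*, the cytosolic aspartate aminotransferase that helps to move oxaloacetate out of mitochondria, stood at 6.66, 7.15, 6.52 and 7.68 in NZO mice 007, 003, 009 and 011 and at 5.56, 5.69, 5.50 and 6.34 in B6 mice 011, 010, 015 and 009, a difference of 1.23 (limma adjusted p = 0.0245). The lowest NZO mouse was above the highest B6 mouse. *Gpd1*, the glycerol-3-phosphate dehydrogenase through which glycerol enters, rose by 0.61 (limma adjusted p = 0.0148). Mitochondrial PEPCK (*Pck2*) was not well above background on any array.

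Among the close relatives of the 9 genes, 8 of 11 were tested, 1 rose and 1 fell by limma, beside 14.3% of all genes called (0 and 1 by the methods' test after adjustment). *Slc37a2*, a sugar-phosphate carrier related to *Slc37a4*, rose by 0.82 (limma adjusted p = 0.0109) at its brighter probe, while its other probe showed 0.11, so that the probes disagree. With normexp background correction the brighter probe showed 0.40. The gene that fell was *Pkm*. In the pyruvate dehydrogenase complex with its kinases and phosphatases, the alternative fate of pyruvate to that of *Pcx*, 0 of 11 genes rose and 1 fell by limma, beside 14.3% of all genes called (3 and 2 at an unadjusted p of at most 0.05, 0 and 0 by the methods' test after adjustment). It was the kinase *Pdk1* (-1.02, limma adjusted p = 0.0145). The other gene lower at the unadjusted p was *Pdk3*, well above background on 0 of 4 NZO and 4 of 4 B6 arrays. *Pdk3* entered the test through B6 alone. The fasting-induced kinase *Pdk4* had 0.80 (limma adjusted p = 0.151), with overlapping strains.

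Of the 5 genes of fructose use 3 rose and 1 fell by limma (80%, beside 14.3% of all genes; 0 and 1 by the methods' test after adjustment), with a median log2 fold change of 0.52. Ketohexokinase (*Khk*) rose by 0.52 (limma adjusted p = 0.0382), triokinase (*Tkfc*) by 1.03 (limma adjusted p = 0.0265) and the fructose transporter *Slc2a5* by 0.64 (limma adjusted p = 0.0352), whereas sorbitol dehydrogenase (*Sord*) changed by -0.50 (limma adjusted p = 0.0121). Without scaling between arrays *Khk* had 0.28 (limma adjusted p = 0.195) and *Slc2a5* 0.41 (limma adjusted p = 0.11). *Tkfc* stood between 5.14 and 6.40 in NZO and between 4.68 and 4.87 in B6.

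**Figure D4:**
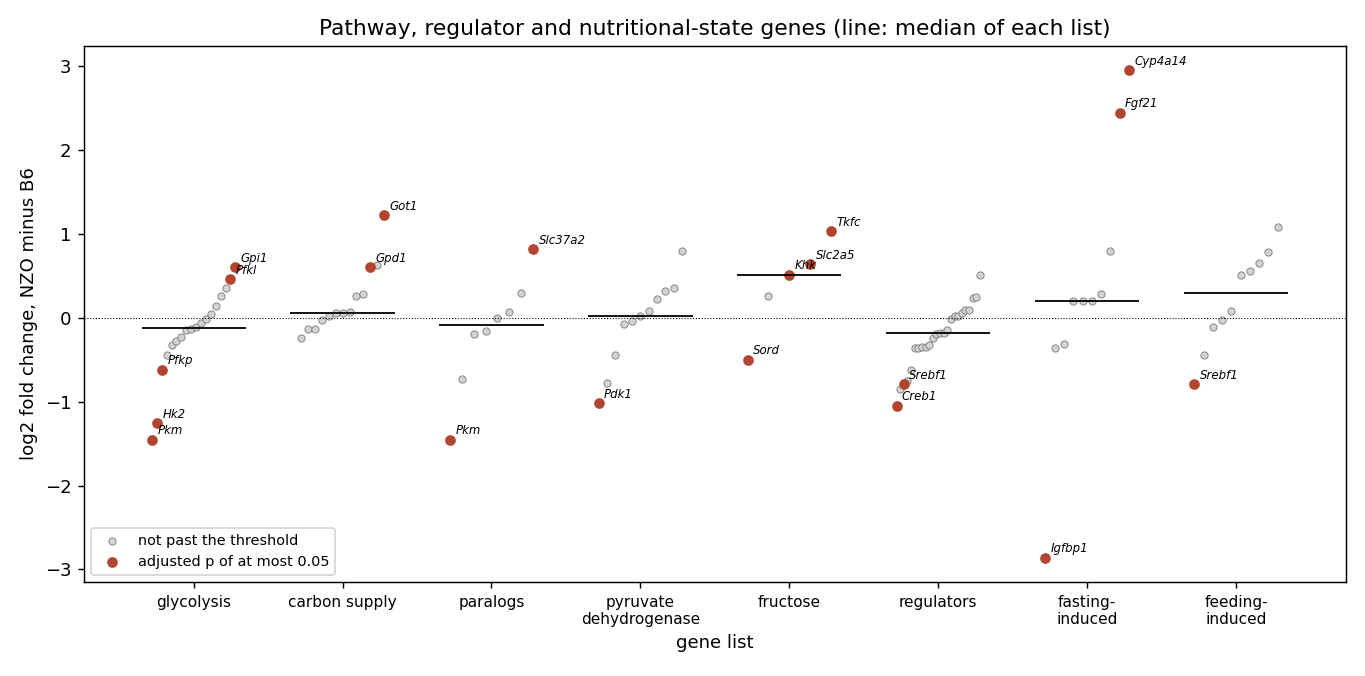
Log2 fold change, NZO minus B6 (vertical axis), of every tested gene in 8 lists, 1 point per gene at its brightest probe, red and named where the adjusted p was at most 0.05, with a line at the median of each list. Among the regulators 2 of 24 passed, beside 14.3% of all genes. The fasting-induced list holds points as far apart as *Cyp4a14* at 2.95 and *Igfbp1* at -2.86. The *Hk2* point rests on NZO values at background.

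Hormone receptors and transcription factors that act on the 9 genes were measured at the level of mRNA. Of 24 tested, 0 rose and 2 fell by limma, with a median log2 fold change of -0.19 (1 and 4 at an unadjusted p of at most 0.05, 0 and 1 by the methods' test after adjustment), beside 14.3% of all genes called. *Srebf1*, the lipogenic factor that insulin induces, fell by 0.79 on the log2 scale (limma adjusted p = 0.0159). *Creb1*, which binds the cAMP response element, had -1.05 at its brighter probe (limma adjusted p = 0.0209) and -0.09 at the other, so that the probes disagree, and with normexp background correction the brighter one had -0.18 (limma adjusted p = 0.211). *Mlxipl* (ChREBP), the factor of the paired element in the *Pklr* window, had -0.18 (limma adjusted p = 0.565). Without scaling between arrays *Mlxipl* had -0.41 and in the table as deposited -0.43, both short of the adjusted threshold. Its direction turned in 1 of 22 alternatives, some of which change only the test or the set of probes and so cannot turn it. *Foxo1*, which insulin keeps out of the nucleus, had -0.34 (limma adjusted p = 0.0854), its coactivator *Ppargc1a* -0.35 (limma adjusted p = 0.238) and *Hnf4a* 0.03 (limma adjusted p = 0.912). *Foxo1* passed at -0.57 without scaling between arrays (limma adjusted p = 0.0384), at -0.56 in the table as deposited (0.0202), at -0.41 with normexp (0.0281) and at -0.34 with an intensity trend (0.0483). *Ppargc1a* passed at -0.59 without scaling (limma adjusted p = 0.0216) and at -0.44 in the table as deposited (0.0314). Without scaling the median of all tested probes was itself -0.22, and in the table as deposited -0.15, against 0.01 in the main fit. In the main fit the other probe of *Foxo1* had -0.28 and that of *Ppargc1a* 0.03.

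Among liver genes known to rise in fasting, calls went in both directions, and 7 of 10 genes passed in neither. Of 10 genes, 2 rose and 1 fell by limma, beside 14.3% of all genes called, with a median log2 fold change of 0.20. The methods' test after adjustment gave 1 and 1, without *Fgf21* (adjusted p = 0.116). *Igfbp1*, which insulin represses as it does *Pck1*, stood at 3.78, 3.10, 4.19 and 4.27 in NZO mice 007, 003, 009 and 011, and at 6.08, 7.37, 7.13 and 6.21 in B6 mice 011, 010, 015 and 009. The gap between the strains was wide, with a log2 fold change of -2.86 (SE 0.37, limma adjusted p = 0.00127). B6 mice 010 and 015, the highest for *Pck1*, were also the highest for *Igfbp1*. *Fgf21*, a hormone induced through PPARα, rose by 2.45 (SE 0.65, limma adjusted p = 0.0403; 1.35 with normexp background correction), and *Cyp4a14*, a fatty acid hydroxylase and PPARα target, by 2.95 (SE 0.53, limma adjusted p = 0.0068). NZO mouse 011 lay at -1.72 for *Fgf21*, within the B6 range of -3.53 to -1.33. Of 10 genes that rise on feeding, 0 rose and 1 (*Srebf1*) fell by limma (10%, beside 14.3% of all genes), with a median log2 fold change of 0.30. At an unadjusted p of at most 0.05 these were 2 and 1, and by the methods' test after adjustment 0 and 1. The counts rest on the brightest probe of each gene. *Pnpla3*, named outside the naming rule, had 1.08 at that probe (limma adjusted p = 0.119) and 2.75 at its other probe. *Me1*, also outside the rule, had 0.65 (limma adjusted p = 0.132), with 0.42 and 1.01 at its other probes.

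**Figure D5:**
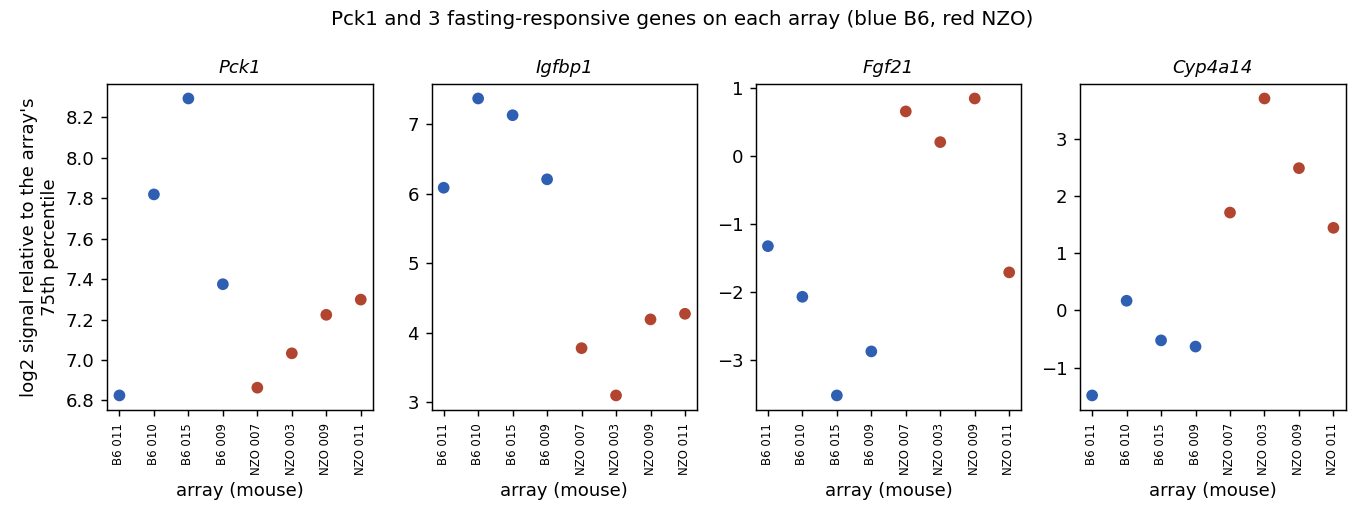
Level (log2 signal relative to the 75th percentile, vertical axes with their own scales that do not start at 0) of *Pck1*, *Igfbp1*, *Fgf21* and *Cyp4a14* in each mouse, B6 in blue and NZO in red. *Igfbp1* is lower and *Cyp4a14* higher in every NZO mouse, while *Pck1* overlaps through B6 011 at 6.82.

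The tissue label held. The 5 hepatocyte markers were well above background on all arrays, and 0 passed by limma (0 at an unadjusted p of at most 0.05, 1 by the methods' test after adjustment). Gluconeogenesis is known to be strongest around the portal vein and glycolysis around the central vein. Of 8 tested periportal markers 0 rose and 1 fell by limma (12.5%, beside 14.3% of all genes), with a median log2 fold change of 0.06. It was *Cdh1* (-1.01, limma adjusted p = 0.00162), and the counts were the same unadjusted and by the methods' test after adjustment. Of 7 tested pericentral markers 1 rose and 3 fell by limma (57.1%, beside 14.3% of all genes), with a median of -0.45, and 1 rose and 1 fell by the methods' test after adjustment, without *Cyp1a2* (0.067) and *Lgr5* (0.0732). The ammonium transporter *Rhbg* rose by 1.28 (limma adjusted p = 0.00156), while *Slc1a2* (-1.48, limma adjusted p = 6.45e-05, with -0.77 and -0.31 at its 2 other probes), *Cyp1a2* (-0.45, limma adjusted p = 0.0355) and *Lgr5* (-0.45, limma adjusted p = 0.0346) fell. The summed pericentral signal, in which the *Cyp2e1* probe was the brightest, ran from 953 to 1115 in NZO and from 1126 to 1194 in B6 without overlap. Its part in the differences of *Pcx* and *Pklr* was not tested. Of 3 adipocyte markers tested 1 rose by limma, *Car3*, described above, beside 14.3% of all genes called. For exocrine pancreas, kidney and intestine, and skeletal muscle, 2 genes each were tested and 0 passed by limma, by the methods' test after adjustment or at an unadjusted p of at most 0.05.

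Of the 28 other called genes named, 13 lost their call when single mice were left out. *Got1* missed the adjusted threshold without NZO 003 or B6 010, 011 or 015 (log2 fold change 1.14 to 1.20, limma adjusted p 0.0648 to 0.0701). *Gpi1* did so without NZO 003 or 011 or any B6 mouse (0.51 to 0.61, limma adjusted p 0.0538 to 0.0671), and *Pfkl* without NZO 003, 007 or 011 or B6 009 or 015 (0.39 to 0.46). *Tkfc* missed it without NZO 003 or any B6 mouse (0.95 to 1.06), *Khk* without NZO 003 or 011 or any B6 mouse (0.42 to 0.55), and *Slc2a5* without NZO 003, 009 or 011 or B6 009, 010 or 011 (0.55 to 0.69). *Fgf21* missed it without NZO 003, 007 or 009 or B6 009, 010 or 015 (2.09 to 2.57), *Creb1* without NZO 003 (-1.02) and *Hba-a1* without B6 010 or 015 (0.93 to 0.94). Among the cell markers, *Cyp1a2* missed it without any 1 mouse but NZO 009 (-0.49 to -0.39), *Lgr5* without NZO 007 or 009 or any B6 mouse (-0.48 to -0.39), *Cd68* without any 1 mouse but NZO 007 (-0.45 to -0.37) and *Itgax* without NZO 003 or 009 or any B6 mouse. *Igfbp1*, *Cyp4a14*, *Pkm*, *Pfkp*, *Gpd1*, *Pdk1*, *Sord*, *Srebf1*, *Slc37a2*, *Alas2*, *Car3*, *Cdh1*, *Rhbg* and *Slc1a2* passed with each mouse left out in turn. *Hk2* also did, but with all NZO values at background this is no sign of stability. Without scaling between arrays, *Gpi1* (0.37, limma adjusted p = 0.102), *Pfkl* (0.23, limma adjusted p = 0.316), *Gpd1* (0.38, limma adjusted p = 0.107) and *Car3* (0.24, limma adjusted p = 0.311) missed the threshold. *Hba-a1* (0.77, limma adjusted p = 0.0995) and *Fgf21* (2.21, limma adjusted p = 0.0547) also missed it there.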

How the data were processed

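Liver of 4 NZO and 4 B6 mice was measured on 1-colour Agilent arrays, 1 per mouse. The authors deposited scanner output, whose intensity values Feature Extraction 11.0.1.1 (file headers; the submitters' processing notes name 9.1) had background-subtracted, and a table whose intensity values equalled the raw medians for all 59305 spots per array (tolerance 0.01). The processed signal was taken as log2 after removal of control and outlier spots (96 to 137 per array), minus the 75th percentile of each array, with replicate spots averaged and no pseudocount. No spot was saturated. The number of arrays, not a read depth, limits precision.

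The 27623 probes detected (flagged as well above background) in 4 of 4 mice of either strain were fitted with limma 3.58.1 (R 4.3.3, lmFit and eBayes) on strain alone, two-sided, and p-values were adjusted by Benjamini-Hochberg. Every probe of the 9 genes was kept. Genes of the other lists were represented by their brightest probe, and all called genes of a list were named, or the 4 with the largest change, plus *Foxo1*, *Ppargc1a*, *Hnf4a*, *Mlxipl*, *Srebf1*, *Igfbp1* and *Pdk4* whatever they showed. Some listed genes are not reported here. The genes, lists and tests were chosen with earlier results of these data known.

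All 9 genes matched RefSeq (GRCm38.p6) by symbol. Probe coordinates are those of the files (mm9). Mice lay on 5 slides (only slide 1 held both strains) and were scanned on 2 days, both of which held both strains. Alternatives covered background correction, scaling, filters, probe summary, slide, scan day, mouse number, the methods' t-test and each mouse left out. The comparison of other tissues was not analysed here.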

Additional observations from a re-analysis of the deposited data

Results flagged for a closer look

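Among 88 sets of 4 mice examined, 6 held 1 mouse apart from the other 3 by Dixon's criterion, and chance alone gives about 1 in 20. The sets were each probe of the 9 genes and each other gene followed through the alternatives, in each strain. Genes given with their values only, such as *Hbb-b1* and *Ptprc*, were not examined. All values are log2 levels relative to the array's 75th percentile. For *Pfkfb1*, NZO mouse 011 stood at 3.73 above 3.08 to 3.14 in the rest of its strain. For *Slc37a4*, B6 mouse 015 stood at 6.23 above 5.68 to 5.75. NZO mouse 007 stood apart for *Cd68* (1.79 above 1.42 to 1.47), NZO mouse 009 for *Foxo1* (2.70 above 2.40 to 2.44), NZO mouse 003 for *Gpd1* (7.93 above 7.61 to 7.64) and B6 mouse 015 for *Itgax* (-1.18 above -1.94 to -1.92). No explanation was tested.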

How the results depend on the processing

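*Pcx* and *Pklr* kept their direction in all 25 alternatives each, from 0.37 to 0.79 and from 0.68 to 1.12, and passed the adjusted threshold in 16 and 15 of 22 tested ones (limma adjusted p up to 0.173 and 0.25). Several alternatives could not turn a direction. The choice of probes tested, the brightest or mean probe, the t-test and the intensity trend left the log2 fold changes of the 9 genes unchanged. Within slide 1 the values repeated those with slide as a fixed term. The cause of the changes below was not tested. With no filter on dim probes, where more probes are tested, 0 of the 9 genes passed (*Pcx* 0.62, *Pklr* 0.96) and 6 instead of 15 pathway genes. With slide as a fixed term, which rests on slide 1 alone, 0 of the 9 passed adjusted (*Pcx* 0.79, *Pklr* 1.03, *Slc2a2* 0.19), 2 passed the methods' thresholds (*Pcx* and *Pck1*, the latter -1.02, not *Pklr*), and 2 pathway genes and 1487 probes passed, against 15 and 3929. With no scaling, where the median of all probes was -0.22 against 0.01, 1 passed adjusted (*Pklr*) and 2 the methods' thresholds (*Pklr* and *Pck1*, the latter -0.70; *Pcx* 0.39, *Gckr* -0.0105, *Hnf4a* -0.20). The table as deposited put *Pck1* (-0.71) in place of *Pklr* (0.68) past the methods' thresholds and gave *Gckr* -0.0252 and *Hnf4a* -0.20 (median of all probes -0.15), normexp gave *Hnf4a* -0.0408 and quantile normalization -0.13. The methods' t-test passed 1 of the 9 at the methods' thresholds (*Pklr*, 0.96, Benjamini-Hochberg adjusted p 0.0639) and 1 after Benjamini-Hochberg (*Pcx*, adjusted p 0.0491), with 2898 and 2495 of all probes, and 6 pathway genes. Leaving out each mouse gave 0 to 3 of the 9 past the adjusted and 1 to 2 past the methods' thresholds, 8 to 16 pathway genes and 2921 to 3794 probes, with *Pcx* from 0.53 to 0.69, *Pklr* from 0.82 to 1.09, *Fbp1* from 0.31 to 0.50, *Pfkfb1* from -0.41 to -0.19 and *Slc2a2* from -0.12 to 0.11. *Slc2a2* was positive without NZO 007 (0.11), NZO 009 (0.0098), B6 010 (0.0057) or B6 015 (0.0015), and *Hnf4a* negative without NZO 009 (-0.0136) or B6 010 (-0.0329). Mouse numbers 009 and 011 occur in both strains and are shared numbers only (correlations of deviations -0.26 and -0.004 over 27623 probes). With the number as a replicate block, which leaves 2 pairs, 0 of the 9, 0 pathway genes and 206 probes passed (*Pcx* 0.66, *Pklr* 1.12, *Slc2a2* 0.11, *G6pc* 0.19, *Pck1* 0.16, *Mlxipl* 0.14). Within the second scan day *Slc2a2* was -0.35 and *Gckr* -0.002, and within slide 1, added after seeing the data, *Pck1* was -1.02 and *Fbp1* 0.68. Of 28 other called genes named, all kept their direction in every alternative run, some of which could not turn a direction. Of these genes 15 kept their call without any 1 mouse, *Hk2* with NZO values at background among them. Their calls were lost by 27 with the replicate block, 24 with slide as a fixed term, 16 with no dim filter, 15 by the methods' t-test, 8 with no scaling, 7 in the deposited table, 6 with scan day as a term, 4 with normexp (*Creb1* -0.18, *Hk2* -0.08, *Itgax* -0.37, *Pfkp* -0.20), 2 with quantile normalization and 2 with the mean over probes. Probes near background have only bounds.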
